A study of Homo sapiens with 40 samples.

Results

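The collagen genes are the genes whose symbol is COL, a number, A and a number, and the arrays measured 43 of them, out of 18244 genes in all. They were found by symbol among the probe sets that the array annotation assigns to exactly 1 gene. This gave 121 collagen probe sets. In 29 of the 43 genes there were several, and the brightest of them on average over the 40 arrays then stood for the gene. The choice used no comparison between treatments.

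RNA came from confluent cultures of AG1522, a line of normal human skin fibroblasts, and was measured on Affymetrix PrimeView arrays. The cells received X-rays as a priming dose of 5 cGy alone, a challenge dose of 2 Gy alone, or 5 cGy and then 2 Gy after 12 h (5 cGy + 2 Gy), and were collected 3, 6, 12 or 24 h after the last dose. Each of these 12 groups had 3 arrays, and 4 sham arrays, from cells not irradiated, served as the common control. The sham arrays carry no later time, so time in culture and time after irradiation cannot be told apart in any comparison with sham, and all such comparisons share the same 4 arrays. All groups are the same line, so nothing here speaks for other donors or for skin as a tissue.

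Collagens are secreted proteins whose chains wind into a triple helix, and fibroblasts are their main makers in the dermis. Fibrillar collagens such as types I, III and V form the load-bearing fibrils, fibril-associated collagens such as types XII and XIV coat those fibrils, and type VI forms beaded microfibrils around cells. Basement membrane collagens, above all type IV, form sheets beneath epithelia, type VII anchors the epidermis to the dermis, and transmembrane collagens stay in the cell membrane. The chains are hydroxylated and folded in the endoplasmic reticulum, exported in large carriers, trimmed by proteases outside the cell and cross-linked. Fibrosis of irradiated skin is an excess of this matrix, which appears long after exposure.

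The region before a gene's start is shown for 5 collagen genes, because 2 of them share it and 3 were the genes called after 5 cGy + 2 Gy at 24 h, as described further on. COL4A1 and COL4A2 encode the chains of the common type IV collagen and lie head to head on chromosome 13. The windows run from 250 bases before to 50 bases after the RefSeq start (GRCh38.p14), 5′ to 3′ on the gene's own strand. Capitals mark 3 short motifs on either strand, with overlapping matches counted: the CCAAT box, which the factor NF-Y binds, the GC box GGGCGG of Sp1-type factors, and the core of the TATA box, TATAAA.
COL4A1, chr13:110307108-110307407, minus strand: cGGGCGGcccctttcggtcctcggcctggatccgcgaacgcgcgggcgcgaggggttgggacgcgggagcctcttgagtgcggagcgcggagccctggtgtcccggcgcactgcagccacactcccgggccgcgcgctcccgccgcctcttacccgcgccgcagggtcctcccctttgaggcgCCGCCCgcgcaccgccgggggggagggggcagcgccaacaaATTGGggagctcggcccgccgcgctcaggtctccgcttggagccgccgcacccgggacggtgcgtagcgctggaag
COL4A2, chr13:110307034-110307333, plus strand: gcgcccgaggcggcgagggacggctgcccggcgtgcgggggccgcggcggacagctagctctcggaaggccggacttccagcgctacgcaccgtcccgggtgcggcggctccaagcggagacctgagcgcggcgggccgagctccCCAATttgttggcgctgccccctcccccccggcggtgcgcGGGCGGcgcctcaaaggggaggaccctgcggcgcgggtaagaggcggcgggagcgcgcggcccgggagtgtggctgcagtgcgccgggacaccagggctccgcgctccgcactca
COL6A2, chr21:46097862-46098161, plus strand: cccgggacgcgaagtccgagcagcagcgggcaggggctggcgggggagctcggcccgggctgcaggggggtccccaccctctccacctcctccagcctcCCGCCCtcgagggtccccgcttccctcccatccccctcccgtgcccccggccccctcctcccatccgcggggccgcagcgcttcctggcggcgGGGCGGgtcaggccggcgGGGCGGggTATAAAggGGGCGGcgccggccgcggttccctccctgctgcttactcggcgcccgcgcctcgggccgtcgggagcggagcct
COL8A2, chr1:36125173-36125472, minus strand: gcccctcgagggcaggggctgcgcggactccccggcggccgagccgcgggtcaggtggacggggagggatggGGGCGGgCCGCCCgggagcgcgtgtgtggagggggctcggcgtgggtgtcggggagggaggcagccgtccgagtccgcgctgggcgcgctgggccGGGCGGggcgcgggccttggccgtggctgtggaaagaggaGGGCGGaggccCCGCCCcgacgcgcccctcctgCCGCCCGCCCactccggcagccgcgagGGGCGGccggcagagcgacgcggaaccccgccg
COL23A1, chr5:178590344-178590643, minus strand: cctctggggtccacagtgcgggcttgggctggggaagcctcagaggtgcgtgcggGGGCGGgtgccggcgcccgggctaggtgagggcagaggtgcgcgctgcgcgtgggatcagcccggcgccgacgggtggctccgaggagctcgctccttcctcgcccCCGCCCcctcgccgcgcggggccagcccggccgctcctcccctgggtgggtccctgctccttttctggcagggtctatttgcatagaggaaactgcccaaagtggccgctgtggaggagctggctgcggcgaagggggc

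The COL4A1 and COL4A2 windows overlap by 226 bases, so the single CCAAT match of each is the same site read on opposite strands. COL6A2 held 4 matches to GGGCGG and 1 to TATAAA, COL8A2 held 8 matches to GGGCGG, and COL23A1 held 2. Windows were given for 31 of the 43 genes, and with several starts for some genes these made 43 windows. GGGCGG was found in 55.8% of the collagen windows and in 45% of all 35116 windows of the same length, CCAAT in 30.2% and 34.6%, and TATAAA in 16.3% and 11.5%. A match is a description of the letters only.

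Values are log2 intensities after the authors' normalization, so a difference of 1 is a factor of 2. Array medians lay between 5.62 and 5.70, and arrays of the same group correlated at 0.979 to 0.998 over all genes. All 10 fibroblast markers had mean levels between 8.92 and 14.57. Keratinocyte, melanocyte, endothelial and leukocyte lists averaged between 4.14 and 5.97 on every array, although KRT10 of the keratinocyte list had a mean of 10.37. In bulk RNA a lower level could reflect fewer cells that make a transcript or less of it per cell, and the arrays cannot tell these apart. An array signal also depends on the probes, so levels are compared between arrays, and a brighter probe set does not show a more abundant transcript. The median signal of all genes serves below only to tell bright from dim probe sets.

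The level over all 40 arrays was above 6.58, the median of all gene means, in 21 of the 43 collagens: 7 of 11 fibrillar, 5 of 9 basement membrane, 3 of 5 microfibrillar, 2 of 3 short-chain network, 3 of 10 fibril-associated, 1 of 3 transmembrane and 0 of 2 other collagens. These 21 are called the bright collagens below. The transmembrane collagen COL17A1 was not analysed here. Among the fibrillar collagens with the brightest probe sets, COL3A1, the type III chain, averaged 14.36 ± 0.08 (SD, n = 3) after 5 cGy + 2 Gy at 24 h, its highest group, and 14.25 ± 0.15 (SD, n = 4) in sham cells, its lowest. COL1A2, a chain of type I, lay between 14.23 and 14.36 in all 13 groups. COL5A1, a chain of the type V collagen that helps to start fibrils, lay between 13.53 and 13.65. The differences between the highest and lowest group of these 3 genes, at most 0.13, were no larger than 1 SD of the sham arrays in COL3A1 and COL5A1 (0.15 and 0.18) and larger than it in COL1A2 (0.05).

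The basement membrane chains COL4A1 and COL4A2 were nearly flat as well in their brightest probe sets, with a gap between the highest and lowest group mean of 0.11 and 0.15. COL18A1, whose protein gives rise to endostatin, lay between 11.67 and 11.91. Of type VI, COL6A1 lay between 14.15 and 14.26 and COL6A3 between 14.18 and 14.31, while COL6A2 covered 9.59 to 10.08. COL8A1, a short-chain collagen of vessel walls and the cornea, lay between 11.18 and 11.42. The fibril-associated COL12A1 and COL16A1 covered 11.98 to 12.35 and 10.80 to 11.17, and COL14A1 covered 7.82 after 5 cGy + 2 Gy at 3 h to 8.63 after 5 cGy at 24 h. The SD of the 4 sham arrays was 0.21 in COL6A2, 0.42 in COL8A1, 0.40 in COL12A1, 0.23 in COL16A1 and 0.31 in COL14A1. The transmembrane COL13A1 lay between 7.57 and 7.94, and COL26A1, a little studied collagen whose probe set was below the median of all genes, between 4.06 and 4.45. Over the 43 genes the difference between the highest and the lowest group mean had a median of 0.33 and ran from 0.10 in COL3A1 to 0.87 in COL15A1.

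**Figure D1:**
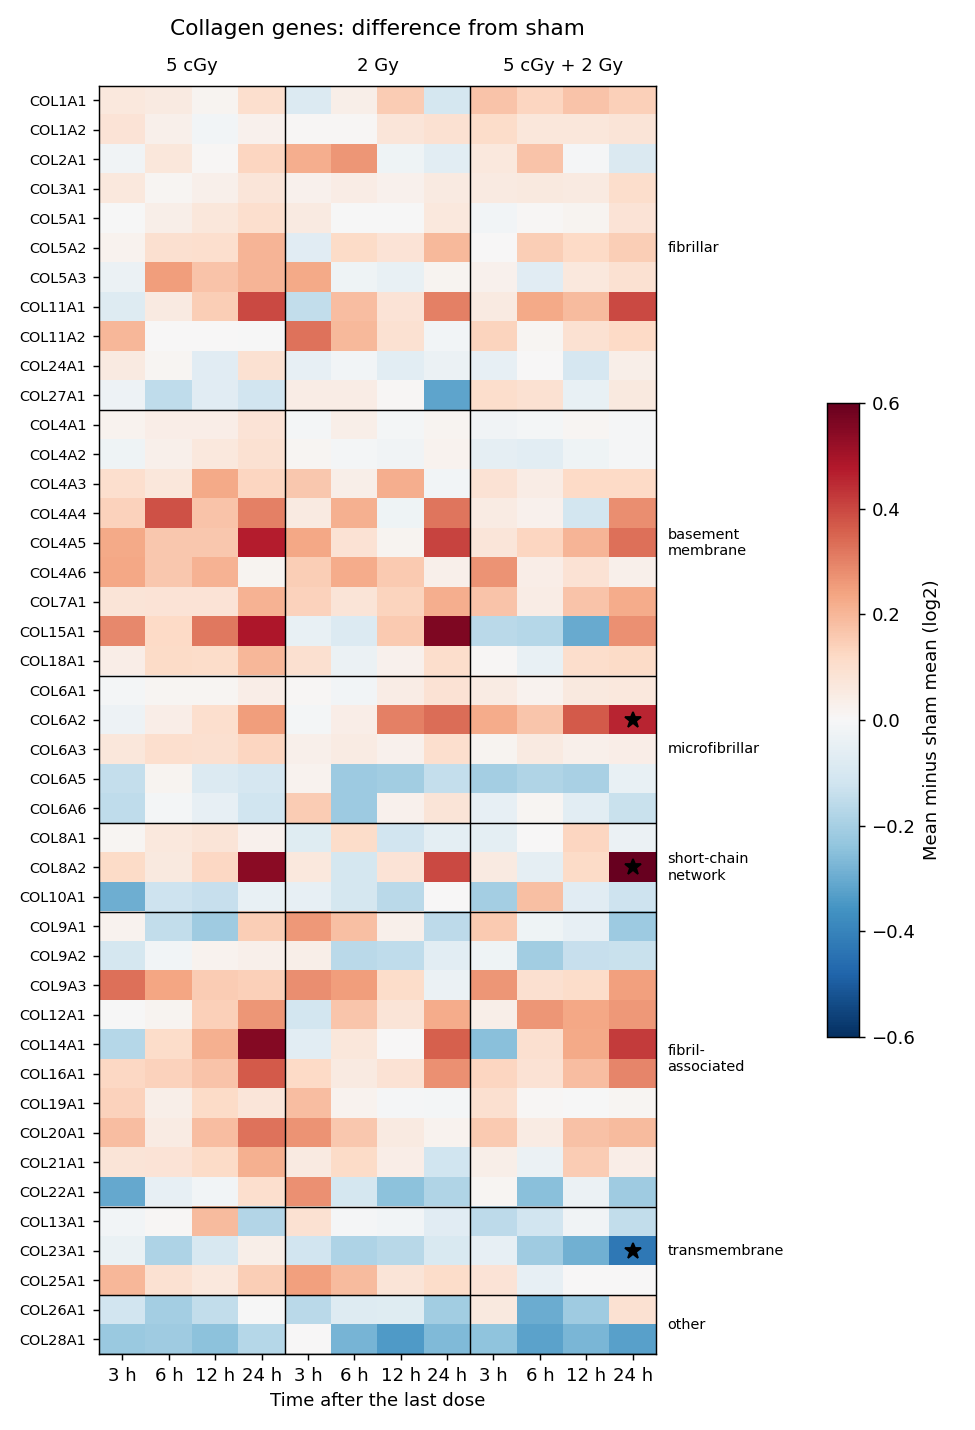
Difference between each irradiated group mean and the sham mean (log2, colour scale from -0.6 to 0.6) for the 43 collagen genes, in rows by class, with treatments and times after the last dose in columns. Stars mark adjusted p under 0.05, which 3 cells reached, all after 5 cGy + 2 Gy at 24 h: COL6A2 (0.46), COL8A2 (0.60) and COL23A1 (-0.43).

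The question of the comparisons with sham was whether irradiated fibroblasts held different amounts of collagen transcripts from unirradiated ones. In 11 of the 12 comparisons no collagen gene passed (limma, adjusted p under 0.05, Benjamini-Hochberg over 18244 genes), and after 5 cGy + 2 Gy at 24 h 3 passed: COL6A2 and COL8A2 rose and COL23A1 fell. In that comparison 5.86% of all genes rose and 4.05% fell, so 2 and 1 of 43 are shares at or below the background. The model held no term for the replicate number. With such a term collagens passed in some of the other 11 comparisons as well. Each time this was a smaller share than that of all genes, as given at the end. By the threshold of the methods, an unadjusted p under 0.05 and over 1.2-fold, 4, 3 and 4 collagens passed at 24 h after 5 cGy, after 2 Gy and after the combined doses, where 12.8%, 15.8% and 19.0% of all genes did. Among all genes 3.80% rose and 2.25% fell after 2 Gy at 24 h, and 2.13% rose and 0.976% fell after 5 cGy at 24 h.

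COL6A2 encodes a chain of type VI collagen. Its level after 5 cGy + 2 Gy at 24 h was 10.25, 9.95 and 10.03, against 9.44, 9.45, 9.80 and 9.81 in sham cells. The lowest irradiated array stood above the highest sham array, so the groups did not overlap. The difference was 0.46 ± 0.11 (log2, SE, 1.37-fold, limma adjusted p = 0.00482), and leaving out replicate 1 of the irradiated group gave 0.37 (adjusted p = 0.0608), while without any of the other 6 arrays the gene still passed. COL6A2 had the smallest collagen p after 2 Gy at 24 h and after 5 cGy + 2 Gy at 12 h as well, without passing (0.34, adjusted p = 0.0570, and 0.37, adjusted p = 0.0833). It passed in the first of these without sham replicate 3 (0.40, adjusted p = 0.0346) or sham replicate 4 (0.40, adjusted p = 0.0264), and in the second without sham replicate 4 (0.43, adjusted p = 0.0373). With the replicate number in the model COL6A2 passed in both, and in other comparisons with sham, as named at the end.

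COL8A2 encodes the other chain of type VIII collagen, the short-chain network collagen known from the inner membrane of the cornea. Its level after 5 cGy + 2 Gy at 24 h was 8.22, 7.35 and 7.72, against 7.04, 6.94, 7.16 and 7.52 in sham cells. Replicate 1 was far above the others, and replicate 2 lay below the highest sham array. The difference was 0.60 ± 0.19 (log2, SE, 1.51-fold, limma adjusted p = 0.0453). The call rested on several arrays: it was lost without replicate 1 (0.37, adjusted p = 0.352) or replicate 3 (0.62, adjusted p = 0.103) of the irradiated group and without sham replicate 1 (adjusted p = 0.0798), 2 (adjusted p = 0.147) or 3 (adjusted p = 0.0745). COL8A2 was also the collagen with the smallest p after 5 cGy at 24 h, where it did not pass (0.54, adjusted p = 0.128). With the replicate number in the model it passed at 24 h after every treatment, as named at the end.

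COL23A1 encodes a transmembrane collagen whose ectodomain can be shed. Its level after 5 cGy + 2 Gy at 24 h was 5.01, 5.09 and 4.91, against 5.32, 5.31, 5.65 and 5.46 in sham cells. Every irradiated array lay below every sham array. COL23A1 fell by 0.43 on the log2 scale (SE 0.13, 1.35-fold lower, limma adjusted p = 0.0227), from a sham level below the median of all genes. The call was lost without sham replicate 3 (-0.36, adjusted p = 0.0826) and without replicate 1 (-0.44, adjusted p = 0.0658) or 3 (-0.38, adjusted p = 0.115) of the irradiated group.

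Probe sets other than the brightest gave a mixed picture for these genes. The brightest of COL6A2 is of the x_at kind, which the maker marks as able to match other transcripts. Of the 3 others of COL6A2, the next brightest (level 8.37) was higher by 0.26 in the same comparison (unadjusted p = 0.0305), and the dimmer ones differed by -0.20 and -0.07 (unadjusted p = 0.0923 and 0.496). The 1 other probe set of COL8A2, near the floor of the array at 3.95, differed by -0.09 (unadjusted p = 0.556). COL23A1 had no other.

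**Figure D2:**
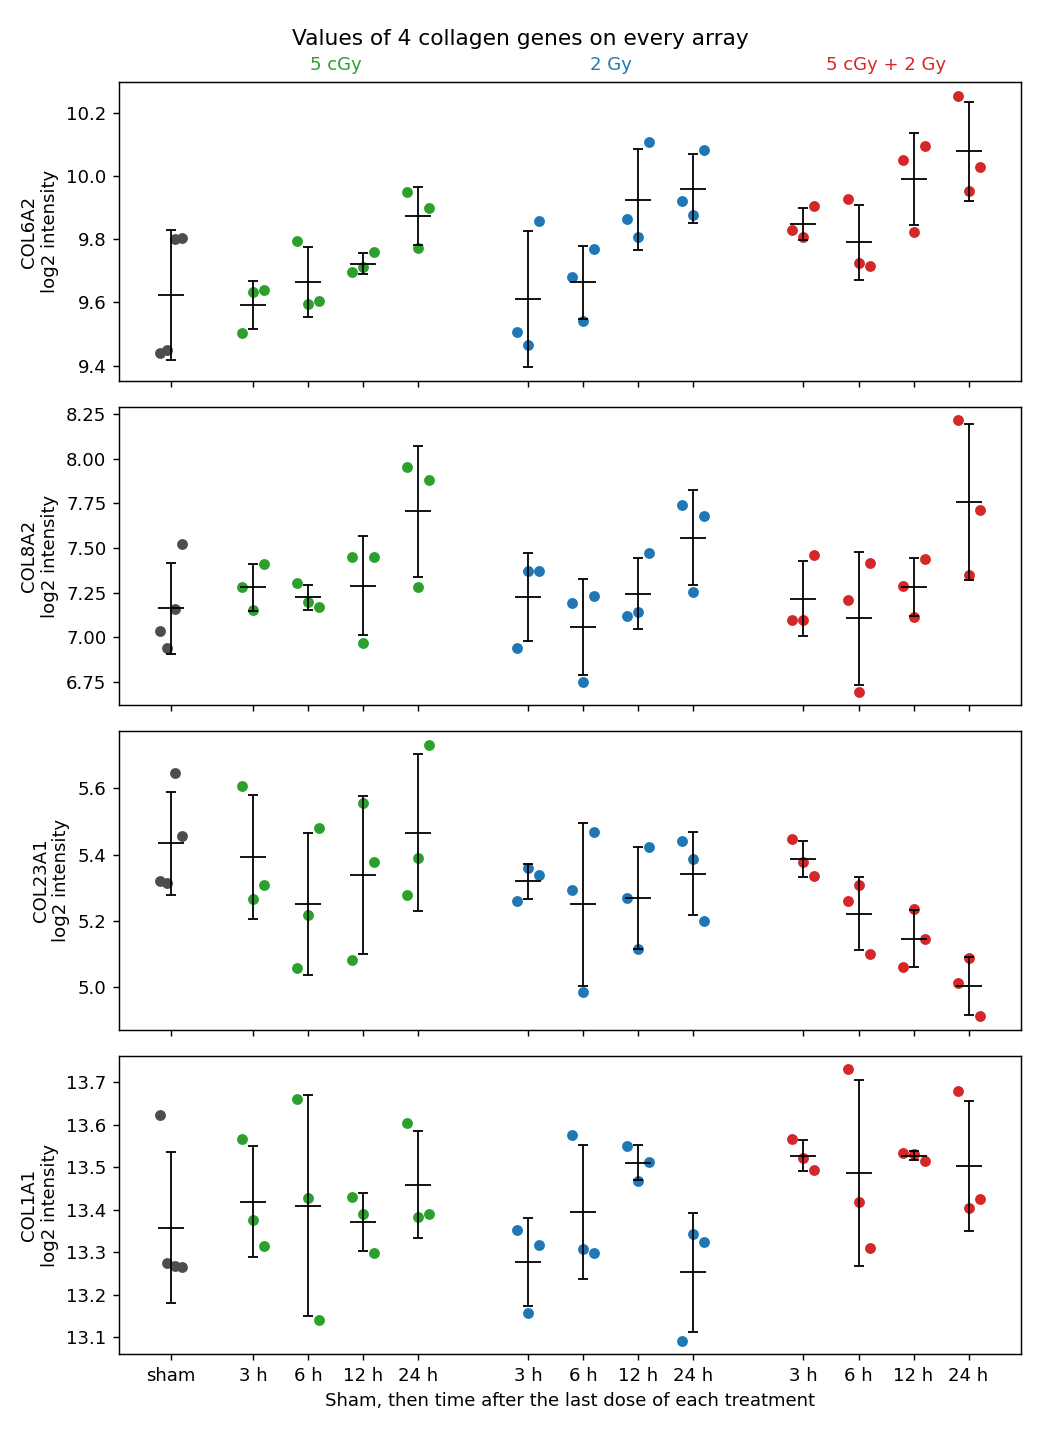
Log2 intensity of COL6A2, COL8A2, COL23A1 and COL1A1 on every array, with sham at the left and then 3, 6, 12 and 24 h after 5 cGy, after 2 Gy and after 5 cGy + 2 Gy. Points are arrays, horizontal lines are group means and bars are the mean ± 1 SD (n = 4 for sham and 3 otherwise). COL6A2 reached 10.08 and COL23A1 5.00 after 5 cGy + 2 Gy at 24 h, and COL1A1 group means stayed between 13.25 and 13.53.

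At the earlier times the smallest p among collagens belonged to different genes, and none passed in the model without the replicate number. After 5 cGy these were COL9A3 at 3 h (0.33, adjusted p = 0.9999), COL4A4 at 6 h (0.38, adjusted p = 0.804) and COL4A3 at 12 h (0.23, adjusted p = 0.409), where 0%, 0% and 0.329% of all genes passed. COL9A3 encodes a chain of a cartilage collagen, and COL4A3 and COL4A4 are type IV chains of the kidney filter. After 2 Gy they were COL11A2 at 3 h (0.33, adjusted p = 0.203) and COL28A1 at 6 h (-0.28, adjusted p = 0.675) and 12 h (-0.34, adjusted p = 0.220), with 0.132%, 0.192% and 0.669% of all genes passing. After 5 cGy + 2 Gy they were COL9A3 at 3 h (0.26, adjusted p = 0.694) and COL28A1 at 6 h (-0.32, adjusted p = 0.352), with 0.132% and 0.378% of all genes passing, while at 12 h 0.806% of all genes rose and 0.597% fell. At an unadjusted p under 0.05 there were 2, 2, 2 and 6 of 43 collagens after 5 cGy at 3, 6, 12 and 24 h, beside 3.52%, 5.94%, 8.98% and 15.7% of all genes. After 2 Gy there were 4, 3, 3 and 4, beside 13.3%, 6.15%, 9.83% and 18.9%, and after 5 cGy + 2 Gy 3, 3, 3 and 6, beside 6.39%, 8.68%, 12.4% and 22.5%. These counts were near or below the shares over all genes.

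The whole set shifted little. At 24 h the median difference from sham over the 43 genes was 0.10 after 5 cGy, 0.02 after 2 Gy and 0.08 after 5 cGy + 2 Gy, beside 0.03, 0.02 and 0.01 over all genes, and 35, 25 and 30 of the 43 were above sham. By class, the basement membrane collagens had a median of 0.20 after 5 cGy at 24 h with 9 of 9 above sham, and the fibril-associated collagens 0.18 with 10 of 10 above it. Without the replicate number in the model, 0 of these genes passed, and with it COL4A5, COL14A1 and COL16A1 did, as named at the end. Collagens share arrays and vary together, so these counts are not independent observations, and the share of all genes above sham is not given. After 2 Gy at 24 h the medians of the basement membrane and fibril-associated collagens were 0.11 (8 of 9) and -0.03 (4 of 10). After 5 cGy + 2 Gy they were 0.12 (7 of 9) and 0.11 (7 of 10). The fibrillar collagens had medians of 0.10, 0.02 and 0.09.

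For the main skin collagens the intervals of the brightest probe set were narrow. Over the 12 comparisons with sham, the 95% interval of the difference stayed within a factor of 1.32 for COL1A1, 1.18 for COL1A2, 1.21 for COL3A1, 1.22 for COL4A1, 1.16 for COL6A1 and 1.21 for COL6A3, each in either direction. Of 516 intervals (43 genes in 12 comparisons), 506 lay inside a factor of 2, and 9 of the 10 exceptions were those of COL15A1, the other being COL14A1 after 5 cGy at 24 h. Among the 21 bright collagens 251 of 252 lay inside a factor of 2 and 210 inside a factor of 1.5. The factors hold for 1 probe set of each gene and not for the gene. The brightest probe sets of COL1A2, COL3A1, COL6A1 and COL6A3 had mean levels of 14.20 to 14.30, near the highest value on any array (14.78), and whether this narrowed their range was not tested. Dimmer probe sets went past these factors at 24 h: COL6A1 differed from sham by -0.62 (level 8.89, unadjusted p = 0.0106) and 0.29 (level 8.18, unadjusted p = 0.0156) after 5 cGy + 2 Gy, COL3A1 by 0.35 (level 12.12, unadjusted p = 0.0106) after 5 cGy + 2 Gy, and COL1A2 by -0.30 (level 8.78, unadjusted p = 0.0395) after 2 Gy. After 2 Gy COL6A1 differed by -0.45 (level 8.89, unadjusted p = 0.0595), -0.23 (level 6.7, unadjusted p = 0.0229) and 0.23 (level 8.18, unadjusted p = 0.04585). After 5 cGy it differed by -0.22 (level 8.89, unadjusted p = 0.3385). A p that missed the threshold does not show equal levels.

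**Figure D3:**
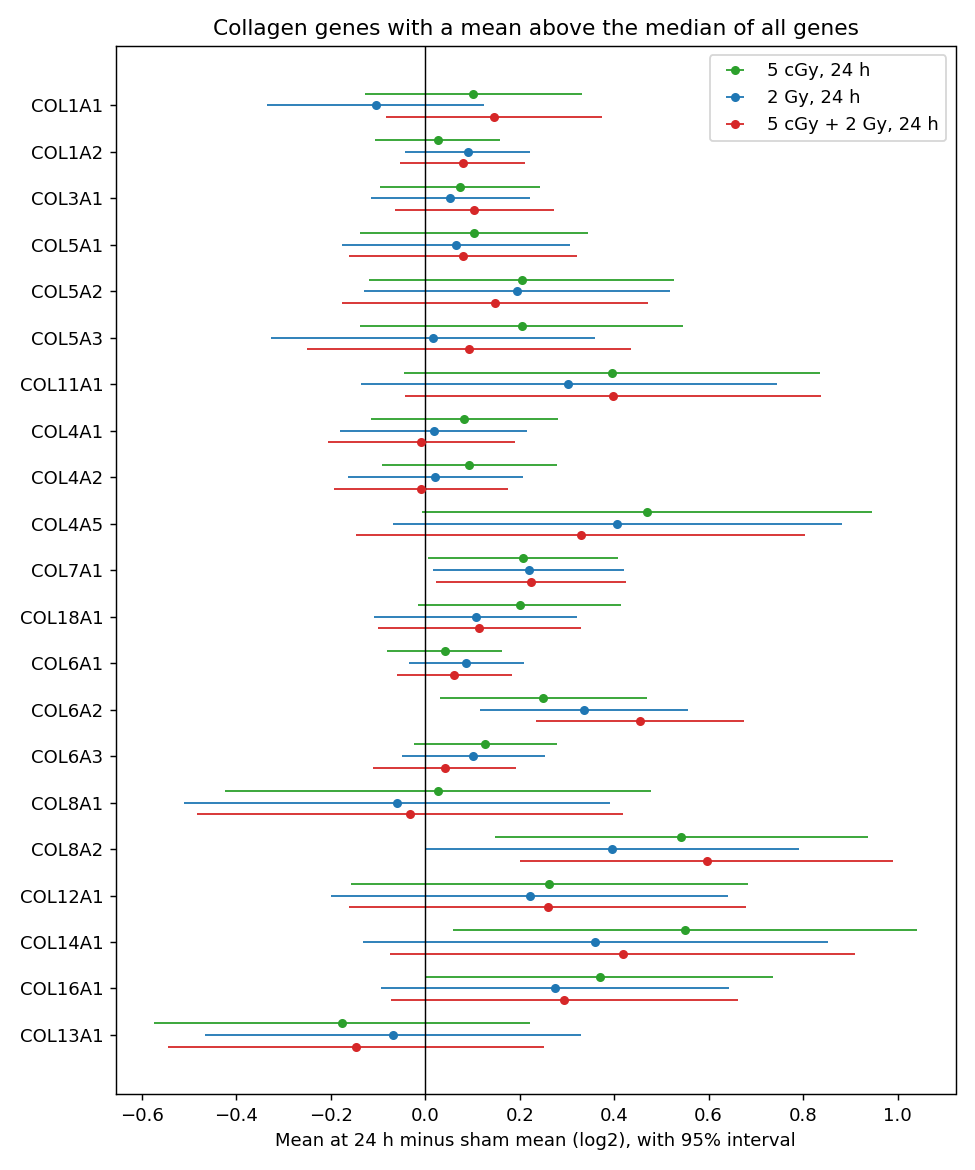
Difference between the mean at 24 h and the sham mean (log2, points) with its 95% interval (lines) for the 21 bright collagens, by treatment. The intervals of COL1A2, COL3A1 and COL6A1 are the shorter ones, and those of COL8A1, COL12A1, COL14A1 and COL4A5 are wide.

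COL1A1, the other type I chain, is named outside the rule, beside its partner COL1A2. Its level after 5 cGy + 2 Gy at 24 h was 13.68, 13.40 and 13.43, against 13.62, 13.27, 13.27 and 13.27 in sham cells, and the groups overlapped. Its mean was 0.10 above sham after 5 cGy at 24 h (limma adjusted p = 0.747), and after 2 Gy it differed from sham by -0.10 (adjusted p = 0.697). Its 4 other probe sets gave differences between -0.09 and 0.24 over the 3 treatments at 24 h. The 0.24 came after 5 cGy + 2 Gy (level 12.84, unadjusted p = 0.0399).

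The study asked whether the priming dose altered the response to the challenge dose, which is the comparison of 5 cGy + 2 Gy with 2 Gy. Without a term for the replicate number no gene of any kind passed in it (0% of 18244 genes at 3, 6, 12 and 24 h and over the 4 times), and so no collagen did. The smallest p belonged to COL1A1 at 3 h (0.25, adjusted p = 0.945), COL10A1 at 6 h (0.29, adjusted p = 0.9998), COL22A1 at 12 h (0.21, adjusted p = 0.9999) and COL27A1 at 24 h (0.38, adjusted p = 0.9999), and over the 4 times to COL25A1 (-0.15, adjusted p = 0.942). At an unadjusted p under 0.05 there were 2, 2, 0 and 4 of 43 collagens at the 4 times and 3 over all times, beside 5.22%, 3.60%, 1.11%, 1.94% and 5.11% of all genes. The 4 at 24 h were a larger share than that of all genes, though none of them passed after adjustment. COL23A1, called against sham only after 5 cGy + 2 Gy, was 0.34 lower than after 2 Gy at 24 h, a difference that did not pass (adjusted p = 0.9999). The median over the 43 genes at 24 h was 0.01, beside -0.01 over all genes.

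Between the single doses, 2 Gy against 5 cGy, 0 collagens passed at any time, and 0.0274%, 0.0274%, 0.0110% and 0.175% of all genes passed at 3, 6, 12 and 24 h. The smallest p belonged to COL22A1 at 3 h (0.58, adjusted p = 0.259), a collagen of tissue junctions such as those of muscle and tendon, and to COL9A1 at 6 h (0.33, adjusted p = 0.987), 12 h (0.24, adjusted p = 1) and 24 h (-0.31, adjusted p = 0.999). At an unadjusted p under 0.05 there were 2, 1, 0 and 1 of 43 collagens, beside 9.02%, 4.43%, 3.24% and 3.91% of all genes. At 24 h the median was -0.09 with 10 of 43 genes higher after 2 Gy, beside -0.01 over all genes, and 0 of the 10 fibril-associated collagens were higher. This comparison uses the same 5 cGy arrays at 24 h as the comparison with sham, so the 2 results are not independent.

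Change with time inside a treatment needs no sham array. There too, time in culture and time after irradiation run together and cannot be told apart, because no sham array has a later time. Between 24 h and 3 h after 2 Gy 4 collagens passed: COL6A2 rose and COL9A1, COL11A2 and COL27A1 fell. In that comparison 6.21% of all genes rose and 5.41% fell, so 1 of 43 is a share below and 3 of 43 a share near the background. No collagen passed after 5 cGy (1.85% of all genes rose and 1.26% fell), where COL14A1 had the smallest p (0.72, adjusted p = 0.136), nor after 5 cGy + 2 Gy (2.98% and 2.01%), where COL23A1 had it (-0.38, adjusted p = 0.0966). At an unadjusted p under 0.05 there were 5 of 43 after 5 cGy, 8 after 2 Gy and 4 after 5 cGy + 2 Gy, beside 15.5%, 27.9% and 17.5% of all genes, which are larger shares.

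COL6A2 stood at 9.92, 9.88 and 10.08 at 24 h after 2 Gy, against 9.51, 9.47 and 9.86 at 3 h (0.35 ± 0.12, log2, SE, limma adjusted p = 0.0434). The groups did not overlap, though replicate 3 at 3 h came close to the lowest array at 24 h. COL9A1, a chain of the cartilage collagen IX, stood at 5.08, 5.22 and 5.45 at 24 h, against 5.49, 5.75 and 5.75 at 3 h (-0.42, adjusted p = 0.0405). COL27A1, a fibrillar collagen of cartilage, stood at 5.30, 5.34 and 5.18 at 24 h, against 5.84, 5.40 and 5.67 at 3 h (-0.36, adjusted p = 0.0387). COL11A2, a chain of the fibrillar type XI, stood at 5.89, 5.50 and 5.69 at 24 h, against 5.84, 6.22 and 6.05 at 3 h (-0.34, adjusted p = 0.0441), and here the groups overlapped. The 3 genes that fell were below the median signal of all genes, and COL6A2 was above it.

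None of these 4 calls withstood the loss of every array. COL6A2 passed only without replicate 3 at 3 h, and otherwise had adjusted p values of 0.123, 0.170, 0.0703, 0.0641 and 0.182 without replicates 1 and 2 at 3 h and 1, 2 and 3 at 24 h. COL9A1 was lost without replicate 2 or 3 at 3 h (adjusted p = 0.122 and 0.137) and 1 or 2 at 24 h (0.159 and 0.110), and COL11A2 without replicate 2 or 3 at 3 h (0.201 and 0.112) and 2 or 3 at 24 h (0.220 and 0.113). COL27A1 was lost without replicate 1 or 3 at 3 h (0.168 and 0.108) and without each array at 24 h (0.0677, 0.0667 and 0.148). Every sign was kept. The other probe sets did not all go the same way. Those of COL11A2 differed by -0.41 (level 5.78, unadjusted p = 0.000901) and -0.18 (4.37, unadjusted p = 0.226), and those of COL9A1 by -0.41 (3.14, unadjusted p = 0.00733), -0.02 (3.53, unadjusted p = 0.845) and 0.16 (3.16, unadjusted p = 0.131). Those of COL6A2 differed by 0.14 (8.37, unadjusted p = 0.273), -0.17 (5.94, unadjusted p = 0.190) and -0.23 (6.26, unadjusted p = 0.0306). Over all 7 calls, against sham and between times, 6 of 12 comparisons with another probe set had the sign of the brightest.

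The direction of the change from 3 h to 24 h was shared by many collagens. Of the 43, 21 were higher at 24 h in all 3 treatments and 6 were lower in all 3. The treatments share no arrays, but their arrays carry the same replicate numbers. Among the 21 bright collagens 17 were higher in all 3 (81.0%) and 0 were lower, while of the 9122 genes above the median signal 40.1% were higher and 27.8% lower. Among all genes these shares were 26.3% and 26.5%. The bright collagens varied together within groups, with a correlation over 0.5 in 102 of 210 pairs and a median of 0.48. The 17 are therefore not independent, and the shares count genes rather than separate observations. COL14A1, which binds fibrils and regulates their width, was higher by 0.72 after 5 cGy, 0.42 after 2 Gy and 0.67 after 5 cGy + 2 Gy. COL11A1, which nucleates fibrils together with type V, was higher by 0.47, 0.45 and 0.35, and COL8A2 by 0.43, 0.33 and 0.54. None of these 9 differences passed by itself in the model without the replicate number. With that number in the model some of them passed for each of these genes, as named at the end.

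Among the genes that act on collagen, the leading change was a fall in a collagen-modifying enzyme. P3H2, a prolyl 3-hydroxylase that acts on collagen chains in the endoplasmic reticulum and is known for type IV collagen, fell at 24 h against sham after each treatment. Its level was 8.08, 7.90 and 7.51 after 5 cGy + 2 Gy at 24 h, 8.13, 8.43 and 7.97 after 2 Gy and 8.29, 8.43 and 7.97 after 5 cGy, against 9.30, 9.74, 9.43 and 9.36 in sham cells. All irradiated arrays were below all sham arrays. P3H2 differed from sham by -1.63 ± 0.17 after 5 cGy + 2 Gy (3.09-fold lower, limma adjusted p = 7.18e-08), by -1.28 ± 0.17 after 2 Gy (2.43-fold lower, adjusted p = 9.55e-06) and by -1.23 ± 0.17 after 5 cGy (2.35-fold lower, adjusted p = 9.07e-05). It also fell from 3 h to 24 h inside each treatment (-1.36 after 5 cGy + 2 Gy, -1.38 after 2 Gy and -1.31 after 5 cGy), and no single array decided any of these 6 calls at 24 h. The brightest probe sets of COL4A1 and COL4A2, chains of type IV, differed from sham by at most 0.09 at the same time. Their other probe sets differed by -0.24 to 0.23, none at an unadjusted p under 0.05.

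Of the 17 measured hydroxylases and chaperones of 18 listed, 0 rose and 1 fell at 24 h after 5 cGy, 2 rose and 1 fell after 2 Gy, and 3 rose and 1 fell after 5 cGy + 2 Gy. Over all genes the shares that rose and fell were 2.13% and 0.976% after 5 cGy, 3.80% and 2.25% after 2 Gy and 5.86% and 4.05% after 5 cGy + 2 Gy, which bear on all the lists below. Apart from P3H2, those named by size were CRTAP, a partner of another prolyl 3-hydroxylase (0.50, adjusted p = 0.00773), and P4HA3, a prolyl 4-hydroxylase subunit (0.49, adjusted p = 0.00466), both after 5 cGy + 2 Gy. After 2 Gy P4HA3 rose by 0.43 (adjusted p = 0.0188) and FKBP10, a collagen chaperone, by 0.28 (adjusted p = 0.00886). Leaving out sham replicate 2 ended the calls of CRTAP and, after 2 Gy, of P4HA3 and FKBP10, and so did replicate 3 of the irradiated group for CRTAP, replicate 1 or 3 for P4HA3 and replicate 1 for FKBP10 (adjusted p up to 0.0607, 0.114 and 0.0788). The list's median differences were 0.08, 0.04 and 0.04 after the 3 treatments, beside 0.03, 0.02 and 0.01 over all genes. Of the 11 export genes 0, 1 and 2 rose at 24 h and 0 fell: MIA3, which loads procollagen into carriers, rose by 0.51 after 2 Gy (adjusted p = 0.0457) and by 0.49 after 5 cGy + 2 Gy (adjusted p = 0.0374), and KLHL12, a ubiquitin ligase adaptor that enlarges those carriers, by 0.41 after 5 cGy + 2 Gy (adjusted p = 0.0316). MIA3 passed only without sham replicate 1 in both comparisons (adjusted p up to 0.159 after 2 Gy and 0.138 after 5 cGy + 2 Gy without another array), and KLHL12 was lost without sham replicate 2 or 3 or replicate 1 or 2 of the irradiated group (up to 0.164). The medians of this list were 0.02, 0.03 and 0.07.

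Of the 15 procollagen proteases and cross-linking enzymes 0, 0 and 1 rose at 24 h and 0 fell, with medians of 0.08, -0.01 and -0.04. PCOLCE, an enhancer of the protease that trims procollagen, stood at 10.92, 10.54 and 10.59 after 5 cGy + 2 Gy, against 10.25, 10.08, 10.31 and 10.39 in sham cells, with no overlap (0.43 ± 0.10, adjusted p = 0.00432). It did not pass without replicate 1 of the irradiated group (0.31, adjusted p = 0.0772). Of the 12 genes of receptors and uptake 0, 0 and 1 rose, the 1 being the integrin chain ITGA11 after 5 cGy + 2 Gy (0.52, adjusted p = 0.0221), which was lost without sham replicate 2 or replicate 1 or 3 of the irradiated group (up to 0.130). The medians of these 12 genes were 0.17, 0.21 and 0.15.

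Of the 11 genes of collagen degradation 1 rose after 5 cGy, 2 after 2 Gy and 3 after 5 cGy + 2 Gy, beside 2.13%, 3.80% and 5.86% of all genes, and 0 fell. CTSK, a lysosomal protease that cleaves the collagen helix, stood at 13.76, 13.83 and 13.87 after 5 cGy + 2 Gy at 24 h, against 12.67, 12.59, 13.05 and 13.24 in sham cells. The groups did not overlap (0.93 ± 0.17, adjusted p = 0.000255). After 2 Gy CTSL, a related protease, rose by 0.28 (adjusted p = 0.0140), and after 5 cGy + 2 Gy MMP2, a gelatinase, rose by 0.43 (adjusted p = 0.0236). The rise of CTSK after 5 cGy (0.58, adjusted p = 0.0481) was lost without sham replicate 1 or 2 or without any array of the irradiated group (adjusted p up to 0.321), and CTSK after 2 Gy without sham replicate 2 or replicate 3 of the irradiated group (up to 0.0910). CTSL after 2 Gy was lost without sham replicate 2 or replicate 2 or 3 of the irradiated group (up to 0.0660), and MMP2 without sham replicate 2 or replicate 1 or 3 (up to 0.109). The medians of these 11 genes were 0.13, 0.15 and 0.18.

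Of the 24 measured regulators of 25 listed, 0 passed after 5 cGy at 24 h, 1 rose and 1 fell after 2 Gy, and 1 rose and 5 fell after 5 cGy + 2 Gy, where 5.86% of all genes rose and 4.05% fell. CBFB, a subunit of the core binding factor, stood at 8.40, 8.16 and 8.35 after 5 cGy + 2 Gy, against 9.16, 9.41, 8.93 and 8.66 in sham cells (-0.74 ± 0.15, adjusted p = 0.0011). SMAD3, a transducer of TGF-beta signals that activates collagen genes, stood at 10.16, 10.26 and 9.94, against 10.36, 10.95, 10.82 and 10.78 (-0.61, adjusted p = 0.0140). NFYB, a subunit of the factor that binds CCAAT, stood at 8.15, 7.78 and 7.83, against 7.94, 7.20, 7.16 and 6.62, which overlapped (0.69, adjusted p = 0.0313). After 2 Gy NFYB was higher by 0.75 (adjusted p = 0.0274), and SMAD7, an inhibitor of that signal, was lower by 0.42 (adjusted p = 0.0360). Of these, NFYB passed only without sham replicate 1 in both comparisons (adjusted p up to 0.109 after 2 Gy and 0.165 after 5 cGy + 2 Gy without another array). SMAD3 was lost without sham replicate 2 or replicate 3 of the irradiated group (up to 0.101), SMAD7 without sham replicate 2 or 3 or replicate 1 or 3 (up to 0.217), and CBFB kept its call without each array. The medians of the 24 genes were 0.06, 0.03 and 0.06.

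Of the fibroblast markers, 2, 1 and 2 of 10 rose at 24 h after 5 cGy, after 2 Gy and after 5 cGy + 2 Gy and 0 fell, PDGFRB after each (0.45, 0.39 and 0.41). The smooth muscle and myofibroblast markers, whose list averaged 10.43 to 10.96 on the arrays, had 0 of 5 called and medians of -0.11, -0.18 and -0.25. Of the endothelial markers TEK fell after 5 cGy + 2 Gy (-0.83, adjusted p = 0.00177), and of the leukocyte markers CD3E rose after 5 cGy (0.39, adjusted p = 0.0105), both from lists whose means stayed low on every array. The part of these shifts in the collagen values was not tested.

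More of the sum of squares of the 21 bright collagens lay between replicate numbers than between groups, which did not hold for all 43. With 13 groups and only 3 numbers, chance alone gives the groups a larger share. A larger share between groups therefore does not show a larger effect. The labels number the arrays of a group 1 to 3 (1 to 4 in sham) and do not say what a number marks. Over replicates 1 to 3 of the 13 groups, a median of 42.0% of the sum of squares of the 21 bright collagens lay between numbers and 23.6% between groups. For all 43 collagens the medians were 10.6% between numbers and 33.6% between groups, close to 10.4% and 38.6% over all genes, and for all genes above the median signal 19.6% and 42.5%. Number 1 was the highest array in at least 12 of the 13 groups for 10 of the 21 bright collagens (47.6%), against 6.30% of all genes above the median, and in all 13 groups for COL3A1, COL4A5, COL5A2, COL8A1, COL11A1, COL12A1 and COL16A1.

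COL8A1 had 74.0% of its sum of squares between numbers and 7.2% between groups, and its mean was 11.62 in number 1, 11.18 in number 2 and 11.11 in number 3. Number 1 exceeded the mean of the other numbers by 0.48 in COL8A1 and COL4A5, 0.46 in COL14A1, 0.45 in COL11A1 and 0.41 in COL12A1. COL13A1 behaved otherwise and was highest in number 3 in 12 groups. COL15A1 was highest in number 3 and lowest in number 2 in 11 groups each, with a within-group SD of 0.61. COL6A2 had 69.0% of its sum of squares between groups and COL8A2 51.3%. At 24 h COL11A1 differed from sham by 0.40 after 5 cGy, 0.30 after 2 Gy and 0.40 after 5 cGy + 2 Gy, and by 0.60, 0.51 and 0.61 without sham replicate 1. COL8A1 differed by -0.06 after 2 Gy, and by 0.15 without that array. None of these values passed.

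**Figure D4:**
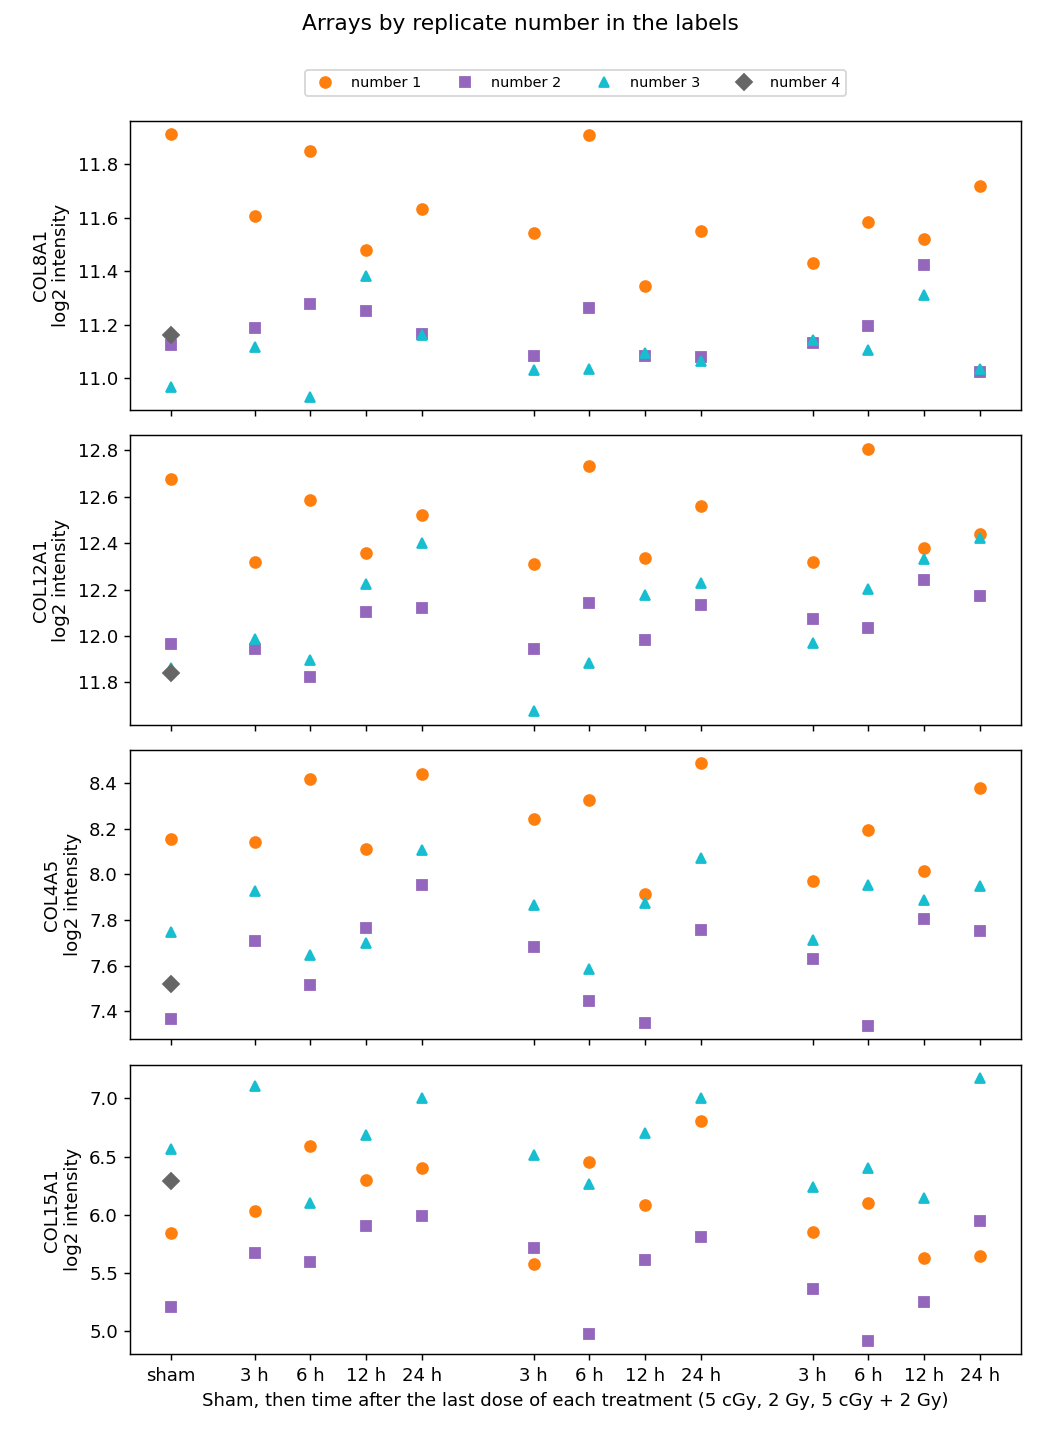
Log2 intensity of COL8A1, COL12A1, COL4A5 and COL15A1 on every array by the replicate number in the labels (symbols), with sham at the left and then 3, 6, 12 and 24 h after 5 cGy, after 2 Gy and after 5 cGy + 2 Gy. Number 1 is highest in all 13 groups for COL8A1, COL12A1 and COL4A5, and number 3 is highest in 11 groups for COL15A1.

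After the group means were subtracted, the bright collagens varied together over the 40 arrays. Of 210 pairs of these 21 genes 102 had a correlation over 0.5, the median was 0.48, and 27 were below 0, with a range of -0.60 (COL13A1 with COL8A1) to 0.94 (COL11A1 with COL12A1). The arrays share their replicate numbers, and inside numbers 1, 2 and 3 (13 arrays each) the medians were 0.47, 0.34 and 0.37. COL6A2 and COL8A2 correlated with each other (0.64).

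**Figure D5:**
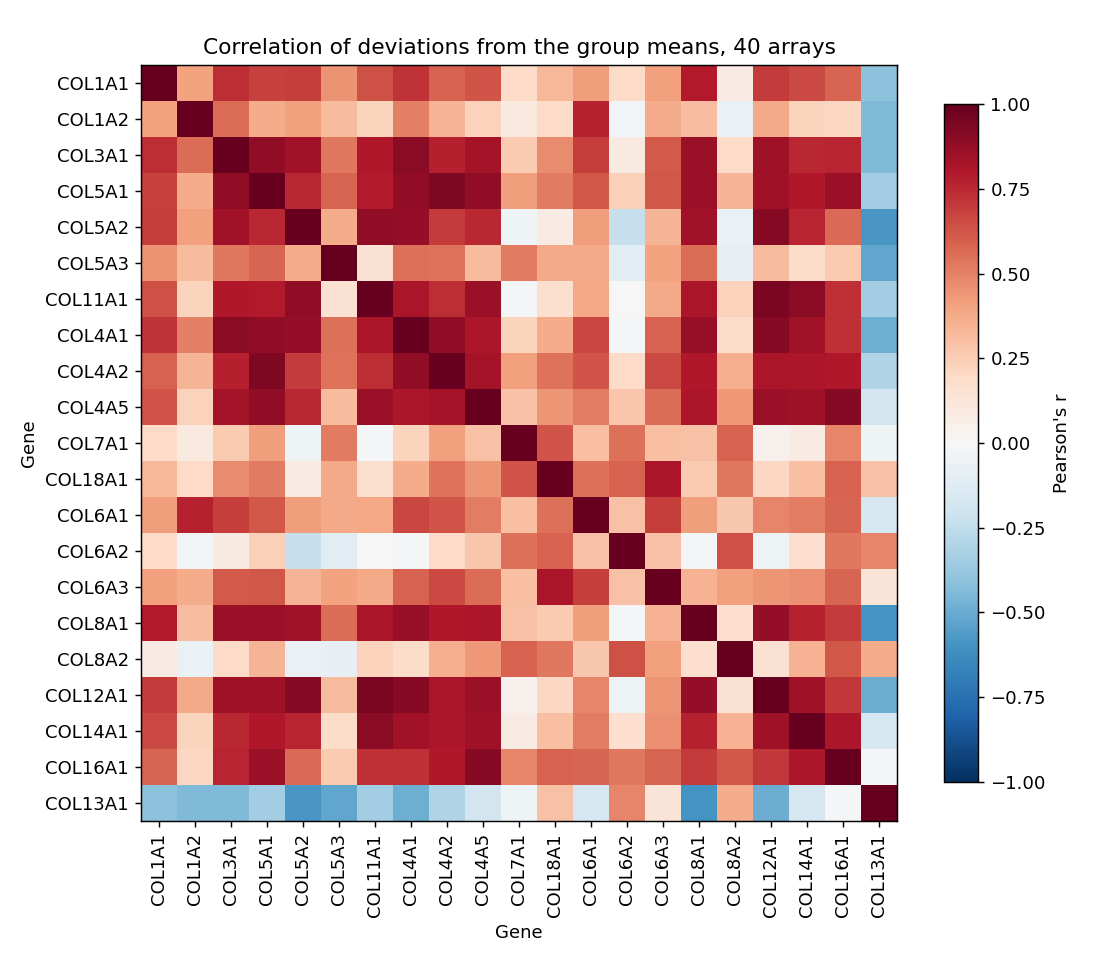
Pearson's r between deviations from the group means over 40 arrays for the 21 bright collagens, on a scale of -1 to 1, with the same genes on both axes. A large block of fibrillar, type IV and fibril-associated genes is above 0.5, and COL13A1 is below 0 with most of them.

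Collagen genes that neighbour each other or whose chains form 1 protein were compared in 8 pairs. COL4A1 and COL4A2, which share the region shown above, had r = 0.89 and rho = 0.86 over the 40 arrays (permutation test, two-sided, p = 1e-05 for each, the smallest that 100000 resamples can give, adjusted p = 4e-05). Without the 2 farthest arrays r was 0.86, and inside numbers 1, 2 and 3 it was 0.86, 0.77 and 0.84. So high an r was not particular to neighbours. Among the 210 pairs of bright collagens, whose median was 0.48, some on different chromosomes were as high. COL4A2 with COL5A1 had 0.93, COL4A1 with COL12A1 0.91 and COL11A1 with COL12A1 0.94. COL3A1 and COL5A2, neighbours on chromosome 2, had r = 0.84 and rho = 0.80 (permutation p = 1e-05 for each, adjusted p = 4e-05), 0.79 without the 2 farthest arrays and 0.76, 0.38 and 0.46 inside the numbers. COL1A1 and COL1A2, the type I chains, which lie on different chromosomes, had r = 0.40 (permutation p = 0.011, adjusted p = 0.029) and rho = 0.25 (p = 0.12, adjusted p = 0.19), and r was 0.27 without the 2 farthest arrays and 0.22, 0.18 and 0.29 inside the numbers. The permutations did not keep arrays to their number. The type VI pair COL6A1 and COL6A2 had r = 0.29 (permutation p = 0.067, adjusted p = 0.13) and rho = 0.28, and the pairs COL4A3 with COL4A4, COL4A5 with COL4A6, COL6A5 with COL6A6 and COL9A1 with COL19A1 had r = 0.07, -0.12, -0.26 and -0.05, none passing.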

How the data were processed

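The data were 40 PrimeView arrays (Affymetrix). The authors made the deposited log2 intensities per probe set by RMA (background adjustment, quantile normalization, summary over probes), as named without a version in the submitters' processing notes. Besides 102 control probe sets, 45278 probe sets had 1 gene name, 1333 several and 2782 none. Values ran from 2.33 to 14.78 and none was missing. Names came from the array annotation, and all 43 collagen symbols matched RefSeq (GRCh38.p14).

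A single linear model was fitted to the 40 arrays, with 13 group means (limma 3.58.1, lmFit and eBayes, in R 4.3.3), with 27 residual and 5.4 prior degrees of freedom. Benjamini-Hochberg adjustment ran over 18244 genes in each of 24 comparisons, two-sided, and adjusted p under 0.05 was a call. Arrays of a group are biological replicates by their labels, without a word on separate cultures, so p-values measure the spread between these arrays, and their number limits the precision. Alternatives were the replicate number as a block, cyclic loess, the mean of a gene's probe sets, a filter on the interquartile range, only the arrays compared, the methods' threshold, and each array left out.

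Named genes were the 3 with the highest mean in each class (1 in a class of under 4), all collagens called (or the smallest p), and up to 2 called members of each other list in each direction. Members and lists were chosen with earlier results of these data known.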

Additional observations from a re-analysis of the deposited data

Results flagged for a closer look

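Of the 43 collagens, 7 had a sham array that stood far from the other 3 (gap over range above Dixon's 95% value), or 16.3%. The same was seen in 6.04% of all 18244 genes, and chance would give about 1 in 20 groups if they were independent. Collagens share the 4 sham arrays and vary together, so the 7 are not independent. In sham replicate 1, COL1A1 was at 13.62, with the others at 13.27, COL4A2 at 14.04, with the others at 13.82 to 13.85, and COL12A1 at 12.68, with the others at 11.84 to 11.96. In sham replicate 2, COL9A2 was high at 5.97, with the others at 5.67 to 5.69, and COL18A1 was low at 11.32, with the others at 11.82 to 11.88. COL28A1 was high in sham replicate 3 at 4.17, with the others at 3.72 to 3.75, and COL9A3 was low in sham replicate 4 at 4.25, with the others at 4.70 to 4.78. Groups of 3 arrays were not tested. What set these arrays apart was not tested.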

How the results depend on the processing

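Counts below are collagens called. After 5 cGy + 2 Gy at 24 h against sham the count of 3 was 2 after cyclic loess, 3 with the interquartile range filter, 1 when probe sets were averaged and 0 when only the arrays compared were fitted, which leaves fewer residual degrees of freedom. For 2 Gy at 24 h against 3 h the count of 4 was 0 after cyclic loess, 3 with the filter, 2 when probe sets were averaged and 0 on the arrays compared alone, and for 5 cGy + 2 Gy at 24 h against 3 h only the arrays compared gave 2 in place of 0. With an array left out, the counts ranged from 0 to 4 after 5 cGy + 2 Gy at 24 h, from 0 to 2 for 2 Gy at 24 h against 3 h, and from 0 to 1 after 2 Gy at 24 h and after 5 cGy + 2 Gy at 12 h, and were 0 in all others. The methods' threshold was passed by 0.532% to 24.8% of all genes in the 24 comparisons. Against sham the counts at this threshold were 2, 1 and 4 at 3, 6 and 24 h after 5 cGy, beside 2.41%, 4.24% and 12.8% of all genes. After 2 Gy they were 2, 2, 2 and 3 at the 4 times (10.2%, 4.31%, 7.60% and 15.8%), and after 5 cGy + 2 Gy 1, 2, 3 and 4 (4.51%, 6.32%, 9.73% and 19.0%). For 5 cGy + 2 Gy against 2 Gy they were 1 and 3 at 6 and 24 h (2.86% and 1.46%), and the 3 at 24 h were a larger share than that of all genes. For 2 Gy against 5 cGy they were 2, 1 and 1 at 3, 6 and 24 h (7.44%, 3.48% and 3.23%). For 24 h against 3 h they were 5, 8 and 4 after 5 cGy, after 2 Gy and after 5 cGy + 2 Gy (13.3%, 24.8% and 15.6%). No sign of a called gene turned under any of these. The cause of the other shifts was not tested.

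Same-numbered arrays did not all deviate together: the correlation averaged 0.263 within a number, with a lowest of -0.223, and -0.12 between numbers, so the numbers were not taken as a pairing. Yet 37 of 39 arrays correlated best with their own number, so the main model leaves out a grouping that most arrays show. Number 4 exists only in sham, so the block term takes up sham replicate 4. Differences from sham then equal those with that array left out, such as 0.515 in COL6A2 after 5 cGy + 2 Gy at 24 h. The counts against sham therefore do not show the effect of the block alone. With the replicate block the counts were 5 of 43 after 5 cGy + 2 Gy at 24 h, 5 after 2 Gy and 5 after 5 cGy, where 3568, 2718 and 2370 of all 18244 genes passed, in each case a larger share. They were 1 at 3 h and 1 at 12 h after 2 Gy (2.55% and 6.71% of all genes), 1 at 12 h after 5 cGy + 2 Gy (8.68%), and 2, 7 and 2 for 24 h against 3 h after 5 cGy, after 2 Gy and after 5 cGy + 2 Gy (beside 1719, 3884 and 2134 of all genes). Of the genes discussed above, COL14A1 passed from 3 h to 24 h after 5 cGy (limma adjusted p = 0.00284) and 5 cGy + 2 Gy (0.00423). COL11A1 passed after 5 cGy (0.00983) and 2 Gy (0.00771), and COL8A2 after 5 cGy + 2 Gy (0.0152). For 5 cGy + 2 Gy against 2 Gy over the 4 times, 22 of all genes passed with the block (0.121%), and 0 collagens did.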
